A study of Rattus norvegicus with 9 samples.

Results

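The expression of 9 genes that bind, make, break down, take up or sense retinoids was described in rat midbrain. The genes were Crabp1, Crabp2, Cyp26b1, Aldh1a2, Rbp4, Stra6, Rara, Rarb and Rxra. They were chosen by name after a large fall of Crabp2 in culture had been seen in these same arrays, so their differences between culture and tissue are given as a description, with no test. All 9 genes were on the array, with 12 probe sets that carried a single gene symbol, out of 10411 genes and 15866 tested probe sets. Genes with more than 1 probe set were represented by the brightest, judged by the mean of all 9 arrays, and the others were a check. The pathway around them was described through 69 other measured genes of 110 listed.

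The study compared primary cultures with the embryonic tissue that they were grown from. MesPC stands for rat mesencephalic cells kept for 9 days in primary culture (6 arrays), and MesE11 for mesencephalon taken at embryonic day 11 (3 arrays). No genetic change or drug is named for either group, and the strain is not given in the labels. Embryos of 4 pregnant rats were mixed and divided into 3 pools. Each pool gave tissue RNA or dissociated cells plated in duplicate, so the 6 culture arrays may stand for fewer than 6 independent cultures. A p-value here measures the spread between these arrays, part of which may be technical.

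Retinol circulates bound to a carrier and enters cells through a membrane receptor. Inside the cell it is oxidised first to retinaldehyde and then to retinoic acid, which is carried by small binding proteins and is destroyed by enzymes of the CYP26 family. Retinoic acid binds nuclear receptors (RAR), which pair with retinoid X receptors (RXR) on DNA, and in the embryo it patterns the hindbrain and spinal cord, while the early midbrain is a region of low retinoic acid.

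The values were log2 intensities, in which a difference of 1 is a doubling. The array medians lay between 8.61 and 8.67, and the lower quartile was 6.98 to 7.11 in MesPC and 7.15 to 7.21 in MesE11, so dim probe sets read slightly lower in culture. The 3 prime minus 5 prime difference of the Gapdh controls, a sign of RNA quality, was 0.558 to 0.729 in MesPC and 0.705 to 0.775 in MesE11. For the beta-actin controls it was 0.350 to 0.490 in MesPC replicates 1-3, 0.536 to 0.669 in replicates 4-6 and 0.515 to 0.798 in MesE11. The 2 sets of culture arrays did not overlap in this measure, and its bearing on their differences was not tested. The 27 control probe sets for bacterial genes read between 4.80 and 6.68, and a gene with both group means inside this range was treated as not clearly above background. The culture arrays formed tight sets: Pearson correlations across probe sets were 0.997 to 0.998 within MesPC 1-3 and within MesPC 4-6, and 0.982 to 0.987 between the sets. The numbers come from the sample titles, the split was known from earlier values of these arrays, and the labels name nothing that parts the sets, so calls between them describe these arrays only. Of 10 midbrain markers, 2 rose, 6 fell and 2 did not pass the test, where 19.7% of all probe sets rose and 22.5% fell. The patterning genes Otx2 and Shh rose by 0.87 (SE 0.15, adjusted p = 0.00149) and 0.55 (SE 0.07, adjusted p = 1.42e-04), and Foxa2 differed by 0.16 (SE 0.19, adjusted p = 0.498). Th, the enzyme of dopamine synthesis, read 8.45 in MesPC and 11.53 in MesE11. Pax8, counted among the falls (adjusted p = 0.0236), and Fgf8 lay within the bacterial control range in both groups. In bulk RNA, fewer cells of a type and less RNA per cell cannot be told apart.

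The 3 members that read lower in culture were the 2 retinoic acid binding proteins and Cyp26b1. Rarb read higher in culture on every array. The remaining members differed little between the groups, or differed between their own probe sets, as Stra6 did.

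Crabp2, a carrier that delivers retinoic acid to nuclear receptors, held the largest difference of the 9 genes. Its log2 intensity was 7.12, 7.00 and 7.19 in MesPC 1-3, 7.03, 7.16 and 6.70 in MesPC 4-6, and 11.01, 11.38 and 11.30 in MesE11. Every culture array lay far below every tissue array, close to the top of the bacterial control range. The mean was 7.03 ± 0.18 in MesPC (SD, n = 6) and 11.23 ± 0.20 in MesE11 (SD, n = 3), a difference of -4.19 (SE 0.12), or 18.3-fold lower. Only 6 probe sets of the whole array had a larger fall, since Crabp2 ranked 7. The level of Crabp2 did not separate the culture sets: the difference of MesPC 1-3 minus MesPC 4-6 was 0.14 (SE 0.12, adjusted p = 0.381). So near the control range, a difference between the sets could go unseen, and the size of the fall may be limited by background.

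Crabp1, the other cellular retinoic acid binding protein, read 8.47, 8.51 and 8.51 in MesPC 1-3, 8.09, 8.09 and 8.12 in MesPC 4-6, and 9.87, 9.87 and 9.61 in MesE11. All culture arrays were below all tissue arrays, and MesPC 4-6 lay below MesPC 1-3. The mean was 8.30 ± 0.22 in MesPC and 9.78 ± 0.15 in MesE11 (SD, n = 6 and 3), a difference of -1.48 (SE 0.13), or 2.80-fold lower. Crabp1 was higher in MesPC 1-3 than in MesPC 4-6 by 0.40 (SE 0.07, adjusted p = 0.00100). Fabp5, a fatty acid binding protein that also carries retinoic acid, was the only other measured member of this group. Its mean was 13.35 in MesPC and 13.44 in MesE11, and the difference of -0.09 (SE 0.06) did not pass the test (adjusted p = 0.238).

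The bases before the start of Crabp2 and Crabp1 are shown because these genes carried the largest falls among the binding proteins. They come from RefSeq, assembly GRCr8, on the plus strand, at chr2:175714612-175714861 for Crabp2 and chr8:64047181-64047430 for Crabp1. Capitals mark TATAAA and GGGCGG or its reverse complement.
Crabp2: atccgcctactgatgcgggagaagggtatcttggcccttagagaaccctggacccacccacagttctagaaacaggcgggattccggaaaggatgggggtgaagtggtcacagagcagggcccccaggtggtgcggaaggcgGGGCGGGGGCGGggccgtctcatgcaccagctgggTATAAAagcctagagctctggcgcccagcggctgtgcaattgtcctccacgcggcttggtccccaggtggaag
Crabp1: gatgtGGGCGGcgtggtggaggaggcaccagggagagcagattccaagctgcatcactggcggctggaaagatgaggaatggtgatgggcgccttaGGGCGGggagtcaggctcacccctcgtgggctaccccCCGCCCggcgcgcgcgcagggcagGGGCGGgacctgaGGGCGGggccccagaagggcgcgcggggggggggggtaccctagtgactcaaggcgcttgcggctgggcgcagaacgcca
Crabp2 held 1 TATAAA and 2 adjoining GGGCGG, and Crabp1 held 5 GGGCGG and no TATAAA. Both motifs were searched on both strands of 300 bases, from 250 before to 50 after the start, and do not overlap each other. TATAAA was found in 14.2% and GGGCGG in 33.1% of 33469 such promoters. Among the members, 6 held GGGCGG and 2 held TATAAA. Rbp4, Rara, Rxra and Aldh1a2, which did not fall, also held GGGCGG, and Rbp4 held TATAAA as well. Cyp26b1, which read lower in culture, held neither motif. A link between these motifs and the falls was not tested.

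**Figure D1:**
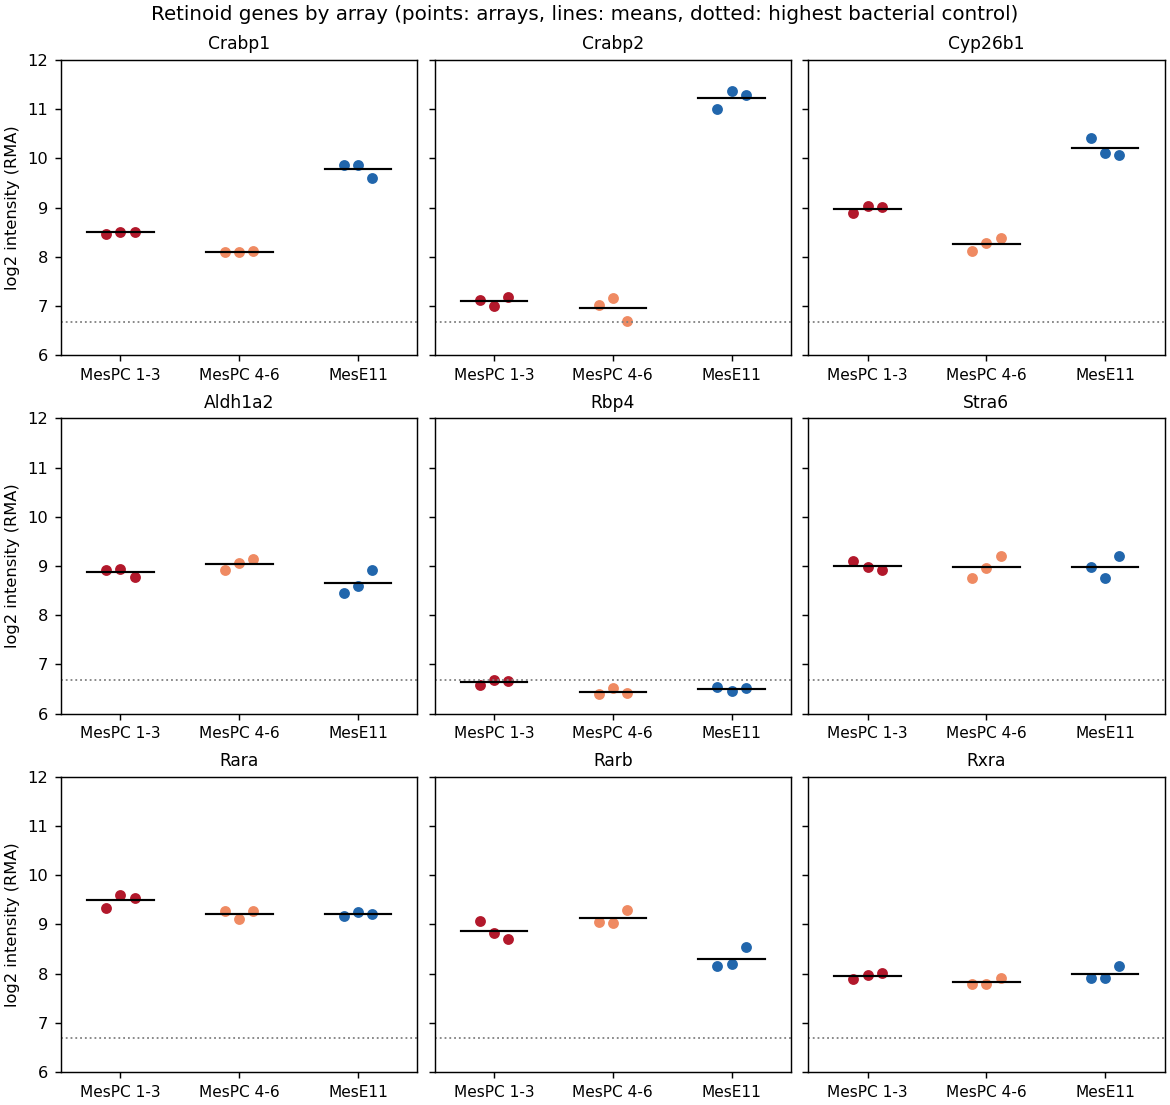
Log2 intensity (RMA) of the 9 genes on each array, 1 panel per gene, with MesPC 1-3, MesPC 4-6 and MesE11 from left to right. Points are arrays, lines are means and the dotted line is the highest bacterial control (6.68). Crabp2 lies at 6.70 to 7.19 on culture arrays and at 11.01 to 11.38 on tissue arrays.

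Cyp26b1 encodes an enzyme that breaks down retinoic acid. Its log2 intensity was 8.89, 9.04 and 9.01 in MesPC 1-3, 8.12, 8.28 and 8.38 in MesPC 4-6, and 10.42, 10.12 and 10.08 in MesE11. The 3 sets of arrays did not overlap, with MesPC 4-6 lowest and MesE11 highest. The mean was 8.62 ± 0.41 in MesPC and 10.21 ± 0.19 in MesE11 (SD, n = 6 and 3), a difference of -1.59 (SE 0.22), or 3.00-fold lower. The difference from MesE11 was -1.22 for MesPC 1-3 and -1.95 for MesPC 4-6 (SE 0.09 each). MesPC 1-3 exceeded MesPC 4-6 by 0.72 (SE 0.09, adjusted p = 6.67e-05).

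Cyp26a1, the related enzyme that retinoic acid strongly induces, read 6.24, 6.31 and 6.23 in MesPC 1-3, 6.06, 6.22 and 6.24 in MesPC 4-6, and 6.52, 6.64 and 6.36 in MesE11. It fell by 0.29 on the log2 scale (SE 0.07, adjusted p = 0.0110), with every value inside the bacterial control range. The call was lost with the culture sets as a random block (adjusted p = 0.131), after quantile normalization (-0.18, adjusted p = 0.0785) and without MesE11 replicate 2 (adjusted p = 0.0512). Of 3 other genes of retinoic acid breakdown, 2 fell (Cyp26a1 and Cyp2c22), and all 3 had both means within the bacterial control range. The call of Cyp2c22 was lost with the random block (adjusted p = 0.240), with the replicate number as a block over MesPC 1-3 and MesE11 (the replicate block, adjusted p = 0.0545) and after quantile normalization (-0.11, adjusted p = 0.207). It was also lost without MesE11 replicate 1 or 3, or MesPC replicate 1 or 3 (adjusted p = 0.0541 to 0.120).

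Aldh1a2 encodes the retinaldehyde dehydrogenase that makes most retinoic acid in the early embryo. It read 8.93, 8.94 and 8.77 in MesPC 1-3, 8.93, 9.07 and 9.15 in MesPC 4-6, and 8.45, 8.60 and 8.93 in MesE11. The groups overlapped through the highest tissue array. The mean was 8.96 ± 0.13 in MesPC and 8.66 ± 0.24 in MesE11 (SD, n = 6 and 3), a difference of 0.31 (SE 0.11). Leaving out 1 array at a time gave 0.20 (without MesE11 replicate 1) to 0.44 (without MesE11 replicate 3).

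Aldh1a1, a further retinaldehyde dehydrogenase and in mouse and human a marker of some midbrain dopaminergic neurons, separated the culture sets. Its log2 intensity was 8.37, 8.30 and 8.09 in MesPC 1-3, 10.43, 10.82 and 10.34 in MesPC 4-6, and 9.17, 8.96 and 9.25 in MesE11. The culture sets lay on opposite sides of the tissue. MesPC 1-3 minus MesPC 4-6 was -2.28 (SE 0.12, adjusted p = 2.19e-08). Over all 6 culture arrays the difference from MesE11 was 0.26 (SE 0.64, adjusted p = 0.750), while it was -0.87 with MesPC 1-3 alone and 1.40 with MesPC 4-6 alone.

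Rdh10, the retinol dehydrogenase that feeds retinaldehyde to these enzymes, read 8.96, 8.70 and 8.87 in MesPC 1-3, 8.48, 8.47 and 8.55 in MesPC 4-6, and 7.69, 7.89 and 7.24 in MesE11. All culture arrays were above all tissue arrays, and Rdh10 rose by 1.06 (SE 0.15, adjusted p = 4.79e-04). Its dimmer probe set differed by -0.15 (SE 0.09, adjusted p = 0.198). Of 12 measured genes of retinol and retinaldehyde interconversion, 1 rose (Rdh10), 1 fell (Rdh7) and 10 did not pass the test. Rdh7 had both means within the bacterial control range. Its call was lost with the random block (adjusted p = 0.203), with the replicate block (adjusted p = 0.0859), after quantile normalization (-0.06, adjusted p = 0.302), without MesE11 replicate 3 (adjusted p = 0.0693) and with MesPC 4-6 alone (adjusted p = 0.0706). Dhrs3, which turns retinaldehyde back into retinol, differed by 0.06 (SE 0.19, adjusted p = 0.824). Dhrs4, a reductase of the same list chosen after its values were seen, was higher in MesPC 1-3 than in MesPC 4-6 by 0.75 (SE 0.08, adjusted p = 7.07e-06).

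**Figure D2:**
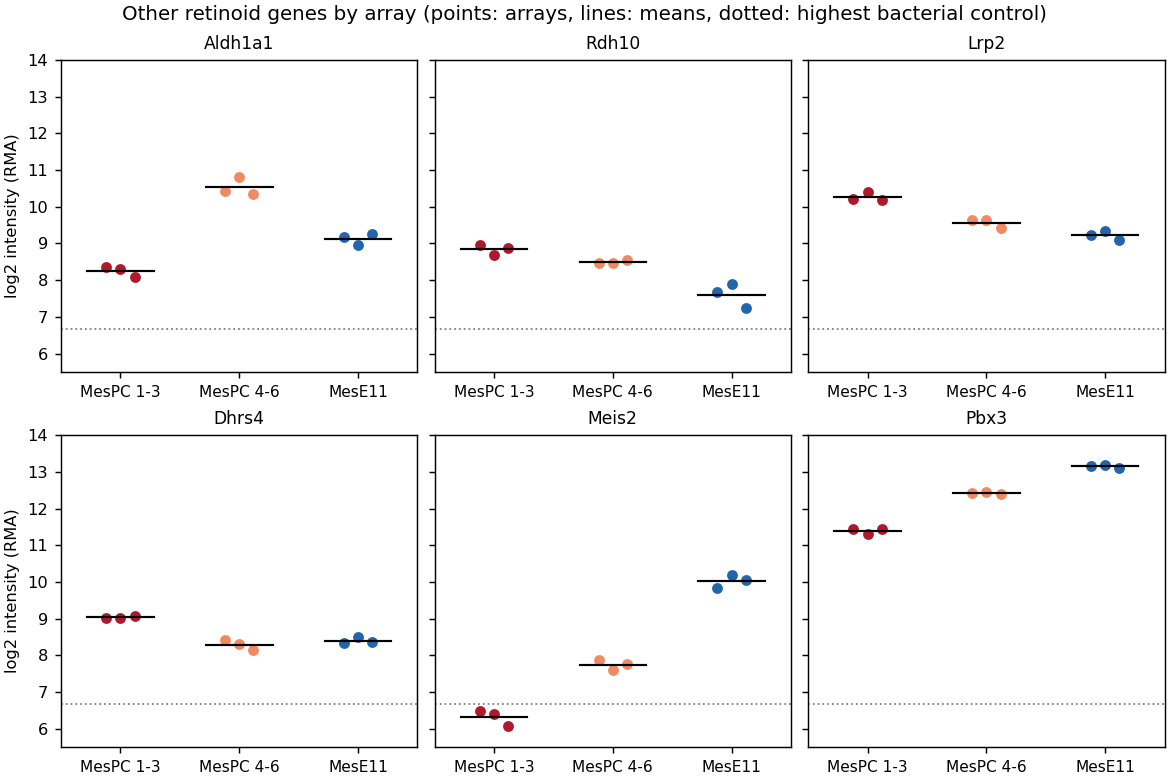
Log2 intensity (RMA) of 6 other genes of the pathway on each array, with MesPC 1-3, MesPC 4-6 and MesE11 from left to right. Points are arrays, lines are means and the dotted line is the highest bacterial control. Aldh1a1 is lowest in MesPC 1-3 and highest in MesPC 4-6, with MesE11 between them.

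Rbp4 encodes the plasma carrier of retinol. It read 6.58, 6.69 and 6.67 in MesPC 1-3, 6.39, 6.51 and 6.43 in MesPC 4-6, and 6.54, 6.46 and 6.51 in MesE11. The groups overlapped and both means were within the bacterial control range. The means differed by 0.04 (SE 0.08). MesPC 1-3 was higher than MesPC 4-6 by 0.20 (SE 0.06, adjusted p = 0.0247), a call lost without MesPC replicate 2, 3, 4 or 6, where the difference was 0.18 to 0.19. It was also lost after quantile normalization (0.13, adjusted p = 0.135) and after centring on ribosomal protein genes (0.12, adjusted p = 0.331).

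Stra6 encodes the membrane receptor through which cells take up retinol from its carrier, and its 4 probe sets did not give 1 answer. The brightest, 1385476_x_at, had a mean of 8.98 over the 9 arrays, and the next, 1376962_at, had 8.94. The suffix x marks probes that may also match other sequences, and the suffix a marks probes shared by transcripts of 1 gene. The brightest read 9.10, 8.97 and 8.93 in MesPC 1-3, 8.76, 8.95 and 9.20 in MesPC 4-6, and 8.97, 8.75 and 9.21 in MesE11, with a difference of 0.01 (SE 0.11). These groups overlapped throughout.

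In the other 3 probe sets of Stra6 every culture array read above every tissue array, and MesPC 4-6 read above MesPC 1-3. The probe set 1376962_at read 8.93, 8.90 and 8.86 in MesPC 1-3, 9.35, 9.36 and 9.25 in MesPC 4-6, and 8.57, 8.48 and 8.74 in MesE11. The probe set 1385475_a_at read 8.90, 8.54 and 8.35 in MesPC 1-3, 9.34, 9.37 and 9.47 in MesPC 4-6, and 8.21, 7.71 and 8.22 in MesE11. The groups stood apart in both. The dimmest, 1390525_a_at, read 7.13, 6.71 and 6.43 in MesPC 1-3, 7.91, 7.53 and 7.67 in MesPC 4-6, and 5.91, 5.76 and 5.95 in MesE11, where it lay inside the bacterial control range. In the order given, their differences, MesPC minus MesE11, were 0.51 (SE 0.13), 0.95 (SE 0.26) and 1.36 (SE 0.29). MesPC 1-3 minus MesPC 4-6 was -0.42 (SE 0.07, adjusted p = 5.64e-04) for 1376962_at, -0.80 (SE 0.14, adjusted p = 7.93e-04) for 1385475_a_at and -0.94 (SE 0.14, adjusted p = 2.19e-04) for 1390525_a_at. The brightest probe set gave 0.03 (SE 0.12, adjusted p = 0.889).

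**Figure D3:**
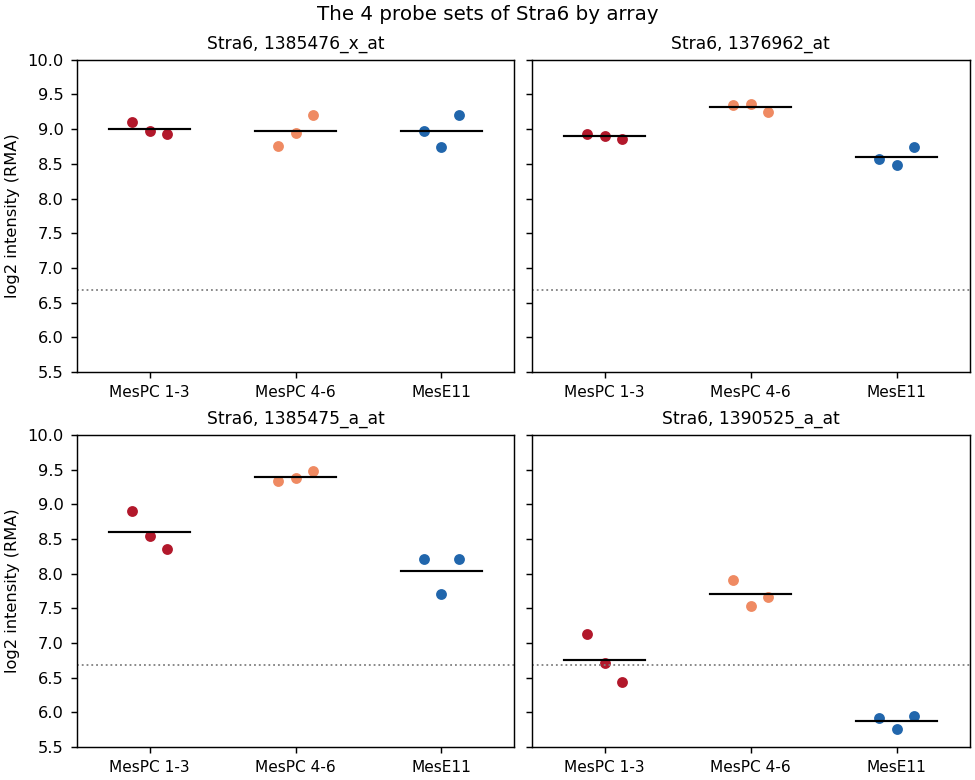
Log2 intensity (RMA) of the 4 probe sets of Stra6 on each array, with MesPC 1-3, MesPC 4-6 and MesE11 from left to right. Points are arrays, lines are means and the dotted line is the highest bacterial control. The brightest probe set overlaps between the groups, and the other 3 read higher on culture arrays.

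Among 3 other measured genes of transport and uptake, Lrp2 rose, Ttr fell and 1 did not pass the test. Lrp2, the endocytic receptor megalin, read 10.20, 10.40 and 10.17 in MesPC 1-3, 9.63, 9.63 and 9.42 in MesPC 4-6, and 9.22, 9.35 and 9.10 in MesE11. All culture arrays were above all tissue arrays, with a difference of 0.68 (SE 0.21, adjusted p = 0.0240) that lost its call without MesE11 replicate 1 (adjusted p = 0.0698) or 3 (adjusted p = 0.0950). The call was also lost with the random block (adjusted p = 0.0536) and after quantile normalization (adjusted p = 0.0523). Lrp2 was higher in MesPC 1-3 than in MesPC 4-6 by 0.69 (SE 0.09, adjusted p = 4.38e-05). Ttr, transthyretin, the partner of the retinol carrier in plasma, fell by 0.66 on the log2 scale (SE 0.15, adjusted p = 0.00731), a call lost with the random block (adjusted p = 0.0868). Of 7 measured genes of retinol binding and storage, 1 fell, the lipase Lipe, by 0.63 on the log2 scale (SE 0.06, adjusted p = 2.56e-05). Aldh1a3 was not analysed here.

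Rarb, the beta form of the retinoic acid receptor, whose own gene is a direct target of retinoic acid, read higher in culture. Its log2 intensity was 9.07, 8.83 and 8.69 in MesPC 1-3, 9.05, 9.02 and 9.30 in MesPC 4-6, and 8.16, 8.19 and 8.54 in MesE11. All 6 culture arrays were above all 3 tissue arrays. The mean was 9.00 ± 0.21 in MesPC and 8.30 ± 0.21 in MesE11 (SD, n = 6 and 3), a difference of 0.70 (SE 0.13), or 1.62-fold higher. MesPC 1-3 minus MesPC 4-6 was -0.26 (SE 0.12, adjusted p = 0.108), and -0.36 with an adjusted p of 0.0388 without MesPC replicate 1.

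Rara, the alpha form, read 9.34, 9.59 and 9.53 in MesPC 1-3, 9.28, 9.11 and 9.28 in MesPC 4-6, and 9.18, 9.26 and 9.21 in MesE11. The groups overlapped, with a difference of 0.14 (SE 0.10). MesPC 1-3 lay above MesPC 4-6 by 0.27 (SE 0.08, adjusted p = 0.0173), a call lost without MesPC replicate 2, 3 or 5 (0.21 to 0.24) and after ribosomal centring (0.18, adjusted p = 0.109). Rxra, a partner receptor, read 7.90, 7.98 and 8.00 in MesPC 1-3, 7.79, 7.79 and 7.90 in MesPC 4-6, and 7.91, 7.91 and 8.15 in MesE11. Its groups overlapped, with a difference of -0.10 (SE 0.07). Among the 3 receptors outside the 9 genes, Rxrg fell by 0.27 on the log2 scale (SE 0.08, adjusted p = 0.0183), a call lost without MesE11 replicate 1 (adjusted p = 0.0867) and with the random block (adjusted p = 0.189). Rarg differed by -0.04 (SE 0.07, adjusted p = 0.652) and Rxrb by -0.12 (SE 0.07, adjusted p = 0.153).

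The promoter windows of Rarb and Cyp26a1 each held a DR5, the spacing of half-sites that RAR and RXR pairs are known to bind. A half-site was spelled AGGTCA as the consensus, with AGTTCA accepted as a variant. The spellings starting with a different base were GGGTCA and, as its own variant, GGTTCA. A DR5 was any half-site followed, after 5 bases, by any other in the same direction, on either strand. The stretches are shown to set the matches side by side, with the DR5 in capitals. They come from RefSeq GRCr8, plus strand, at chr15:11336410-11336438 for Rarb, bases 19 to 47 after the start, and chr1:244883724-244883752 for Cyp26a1, bases 98 to 70 before it. The Rarb start used by RefSeq here lies inside the annotated span of the gene.
Rarb: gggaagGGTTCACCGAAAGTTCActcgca
Cyp26a1: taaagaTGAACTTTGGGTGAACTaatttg
The match of Cyp26a1 reads on the opposite strand. A DR5 was found in 128 of 33469 promoters (0.382%), and Rarb was the only 1 of the 9 genes with one. Shorter spacings, DR1 (0.233% of promoters) and DR2 (0.17%), were in none of the 9 windows.

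**Figure D4:**
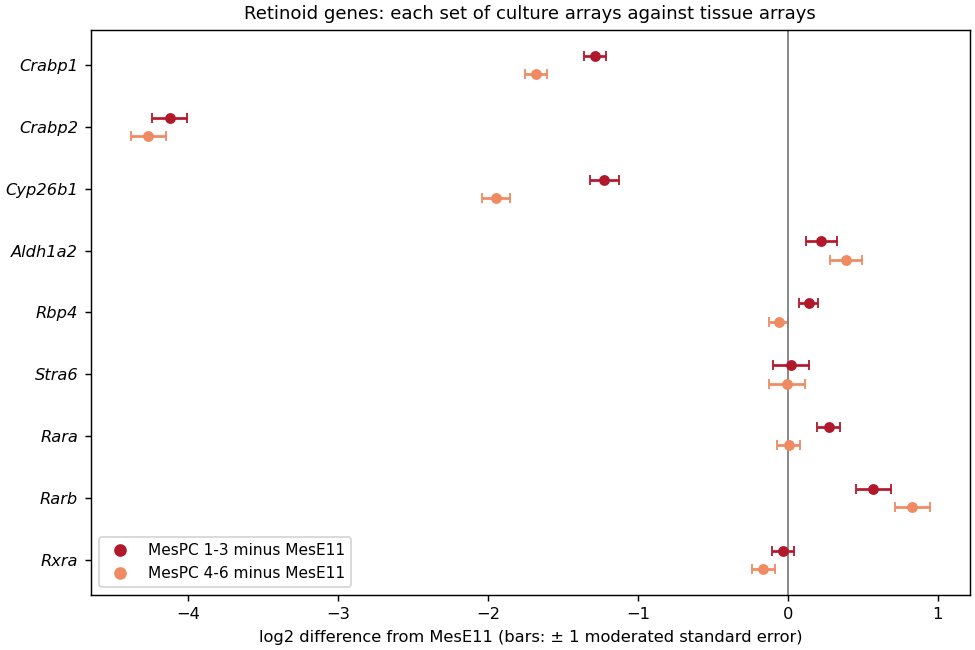
Log2 difference from MesE11 of each of the 9 genes, for MesPC 1-3 (upper point) and MesPC 4-6 (lower point), with bars of 1 moderated standard error. Crabp2 lies at -4.12 and -4.27, and Crabp1 and Cyp26b1 lie further below 0 in MesPC 4-6.

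Over the 9 genes, the fit across all probe sets called 2 higher in MesPC (Aldh1a2 and Rarb) and 3 lower (Crabp1, Crabp2 and Cyp26b1), where it called 19.7% of all probe sets higher and 22.5% lower. Since the genes were chosen on this contrast, nothing is read from these counts. The call of Aldh1a2 was lost after quantile normalization (0.25), median centring (0.27) and ribosomal centring (0.23), and with the random block. It was also lost with the replicate block, with MesPC 1-3 alone, and without MesE11 replicate 1 or 2 or MesPC replicate 1, 2, 4, 5 or 6. All MesPC arrays were above all MesE11 arrays for 1 member (19.0% of all probe sets) and below them for 3 (23.3%). The median difference of the members was 0.01, against -0.07 over all probe sets. Between the culture sets, 4 members were higher in MesPC 1-3 (Crabp1, Cyp26b1, Rbp4 and Rara), where 14.8% of all probe sets were, and 0 were lower at their brightest probe set, where 16.5% were (limma; 1 was, Rarb, at an unadjusted p under 0.05). The median member difference, MesPC 1-3 minus MesPC 4-6, was 0.14, against 0.04 over all probe sets.

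Of the 69 other genes, 5 rose (Lrp2, Rdh10, Nr1h2, Hdac3 and Ret), 13 fell and 51 did not pass the test, with a median difference of -0.09. Over all probe sets 19.7% rose and 22.5% fell. At the brightest probe set of each of the 10411 genes, 2279 rose and 2366 fell. In 20 of the 69 genes both means were within the bacterial control range, as they were in 1201 of the 10411. Among 15 measured genes that respond to retinoic acid, 1 rose and 4 fell at the brightest probe set. No test sets these counts apart from the shares over all probe sets. In 5 of the 15 both means were within the bacterial control range. Tgm2 of this list differed by -0.17 (SE 0.09, adjusted p = 0.141) at its brightest probe set. Its dimmer probe set rose by 0.50 (SE 0.07, adjusted p = 4.54e-04), with all culture arrays above all tissue arrays. Meis2, a homeodomain factor, read 6.49, 6.40 and 6.07 in MesPC 1-3, 7.86, 7.61 and 7.76 in MesPC 4-6, and 9.83, 10.19 and 10.06 in MesE11. All culture arrays were below all tissue arrays, and Meis2 fell by 3.00 on the log2 scale (SE 0.41, adjusted p = 3.23e-04). Its partner family member Pbx3 fell by 1.24 (SE 0.28, adjusted p = 0.00671) and Pbx2 by 0.35 (SE 0.08, adjusted p = 0.00565). Both Meis2 and Pbx3 were lower in MesPC 1-3 than in MesPC 4-6, with differences of -1.43 (SE 0.11, adjusted p = 7.68e-07) and -1.02 (SE 0.06, adjusted p = 7.11e-08). Ret, the receptor for the GDNF family of growth factors, rose by 1.05 (SE 0.09, adjusted p = 1.53e-05), while its other 2 probe sets differed by 0.00 and 0.12 and did not pass the test.

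**Figure D5:**
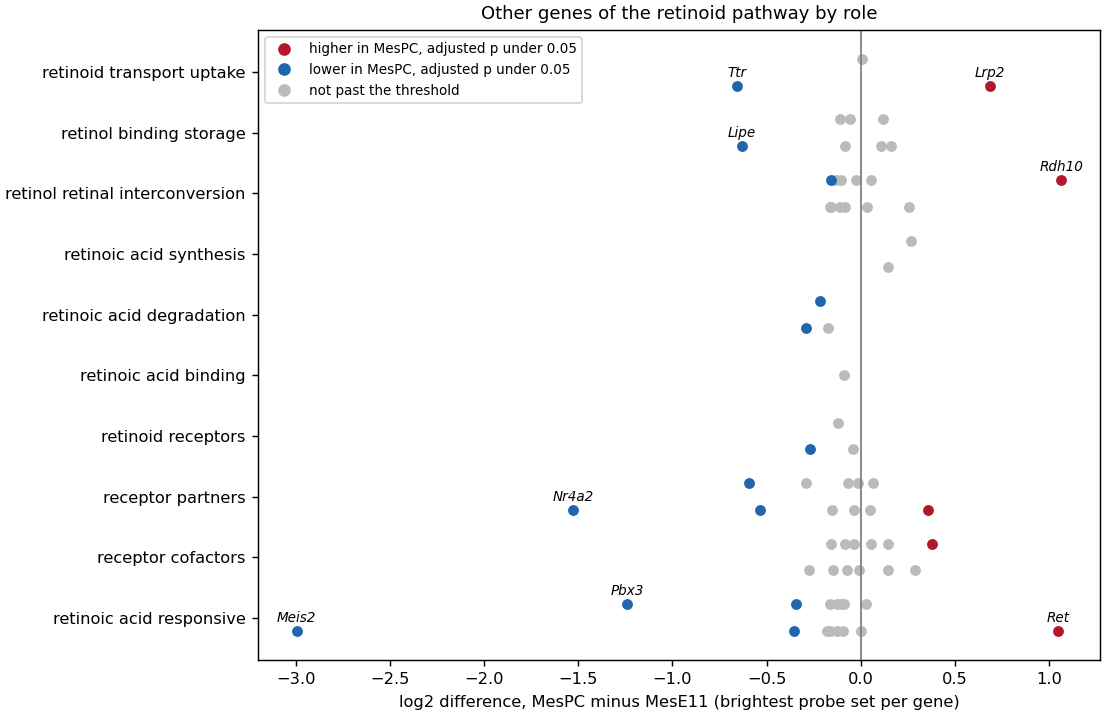
Log2 difference, MesPC minus MesE11, of 69 other genes of the pathway by role, 1 point per gene, with offsets within a role only to separate points. Red points rose and blue points fell at an adjusted p under 0.05, and grey points did not pass. Meis2 lies lowest, and Rdh10 lies highest at 1.06.

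The pattern of each member whose values spanned over 1 log2 unit was compared with that of all 10411 genes, by the root mean square difference of mean-centred values over the 9 arrays. The values were not scaled, so a near gene must share the size of a member's change, and the median over genes also grows with that size. For Crabp2 it is the fall after which the 9 genes were chosen. Nearest to Crabp2 were Cldn5 (0.353), Hbg1 (0.491) and Hbz (0.544), against a median of 1.96 over genes. Their own differences, MesPC minus MesE11, were -3.52, -3.32 and -3.16. Cldn5 encodes a tight junction protein of blood vessels, and Hbg1 and Hbz encode embryonic globins. Nearest to Crabp1 were Kdr (0.114), Ccnd1 (0.145) and Tspan8 (0.158), with a median of 0.709. Nearest to Cyp26b1 were Crabp1 (0.170), Kdr (0.197) and Mecom (0.245), with a median of 0.802. Kdr is a receptor of endothelial growth factor. Nearest to Rarb were Fhl1 (0.121), Ccnl2 (0.129) and Gpcpd1 (0.132), with a median of 0.422.

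Markers of other cell types moved with the same contrast, and their part in the members' differences was not tested. Beside the counts below, 19.7% of all probe sets rose and 22.5% fell, and 16.5% were lower in MesPC 1-3 than in MesPC 4-6. Of 7 erythroid markers 6 fell, with a mean level of 7.17 to 7.56 on MesPC arrays and 10.22 to 10.47 on MesE11 arrays. Of 8 endothelial markers 6 fell (6.80 to 7.08 in MesPC, 7.99 to 8.07 in MesE11), and of 10 microglial markers 6 fell (7.13 to 7.29 in MesPC, 7.60 to 7.62 in MesE11). Of 19 fibroblast and meningeal markers 14 rose and 2 fell (9.57 to 9.81 in MesPC, 7.85 to 7.97 in MesE11), and of 10 astrocyte markers 7 rose (10.61 to 10.80 in MesPC, 9.69 to 9.95 in MesE11). Of 9 neuronal markers 5 fell, and all 9 were lower in MesPC 1-3 than in MesPC 4-6, with mean levels of 10.78 to 11.02 in MesPC 1-3, 11.96 to 12.01 in MesPC 4-6 and 12.47 to 12.59 in MesE11.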

How the data were processed

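Rat RNA was hybridised to 9 Affymetrix arrays (6 MesPC, 3 MesE11). The authors deposited log2 intensities made with RMA, whose version the sources used here do not give, per the submitters' processing notes. RMA corrects background, normalizes arrays to each other and summarises probe sets, so each difference is relative to the rest of the array. Of 15923 probe sets, 57 controls were left out. In the annotation 12783 had 1 symbol, 312 several and 2771 none. The number of arrays limits the precision.

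limma 3.58.1 in R 4.3.3 (lmFit, eBayes) was fitted to all 15866 probe sets. The threshold was 0.05 after Benjamini-Hochberg adjustment over all of them. The fit was tested on simulated data with independent noise, where the culture sets differed only by planted effects. That test cannot show how the real difference between the culture sets bears on the fit of MesPC against MesE11. MesPC was set against MesE11, and MesPC 1-3 against MesPC 4-6 in a fit with 3 groups. SE is limma's moderated standard error and ± is the SD. The members, the 10 retinoid lists and the marker lists were chosen with earlier results of these data known. Named were the members, up to 3 genes per list and direction whose groups did not overlap, a fixed set of pathway genes, and the 3 genes nearest each member that spanned over 1 log2 unit.

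Further marker lists gave, as genes that rose and fell, 2 and 2 of 5 (neural crest), 0 and 3 of 8 (skeletal muscle), 2 and 1 of 8 (choroid plexus), 0 and 1 of 5 (eye) and 0 and 4 of 10 (surface epithelium). The shares of all probe sets that rose and fell were 19.7% and 22.5%. Alternatives were other scalings, a filter on dim probe sets, a variance trend, averaged probe sets per gene, each replicate left out, each culture set alone, and blocks. Figures were drawn with matplotlib 3.10.9.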

Additional observations from a re-analysis of the deposited data

Results flagged for a closer look

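Cyp26a1 in MesPC had 1 array apart from the others. MesPC replicate 4 read 6.06 and the remaining culture arrays read 6.22 to 6.31, against 6.36 to 6.64 in MesE11, all within the bacterial control range. The gap to the nearest array was 0.643 of the group's whole range, above Dixon's critical value for 6 arrays. Chance gives such a gap in about 1 in 20 groups, and 46 genes or probe sets were tested in this way.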

How the results depend on the processing

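The 3 members lower in MesPC stayed 3 in number under every alternative run, including each replicate left out. The members higher in MesPC, 2 as reported, were 1 after quantile normalization, after median centring, after centring on ribosomal protein genes, and with the culture sets as a random block, and 3 with averaged probe sets, which added Stra6; leaving out 1 replicate gave 1 to 2. Members higher in MesPC 1-3 than in MesPC 4-6, 4 as reported, were 2 with ribosomal centring and 2 to 4 with 1 replicate left out. Members lower in MesPC 1-3, 0 as reported, were 1 with ribosomal centring (Rarb), 1 with averaged probe sets (Stra6), and 0 to 1 with 1 replicate left out. The other retinoid genes that rose, 5 as reported, were 9 with MesPC 1-3 alone, 8 with MesPC 4-6 alone and 4 to 6 with 1 replicate left out. Those that fell, 13 as reported, were 23 with ribosomal centring, 7 of 33 tested without the dimmest 40% of probe sets, 7 with the random block, 23 with MesPC 4-6 alone and 11 to 14 with 1 replicate left out. Over all probe sets, both directions together, 6693 were called as reported, 7824 with ribosomal centring and 3227 with the random block. There were 7879 with MesPC 1-3 alone, 7672 with MesPC 4-6 alone and 4599 without the dimmest 40%. Between the culture sets, 4981 were called as reported and 4444 with ribosomal centring. The cause of the shifts in all these counts was not tested, except that the dim filter tests fewer genes.

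Same-numbered MesE11 and MesPC replicates 1 to 3 correlated at 0.0836, -0.119 and -0.111 in their deviations, and so did not meet the bar for pairing by number. MesE11 replicates 1, 2 and 3 correlated highest with MesPC replicates 4, 5 and 6, at 0.240, 0.134 and 0.363. This is a hint from the data and not from the labels, which tie no culture array to a tissue pool, so no block was fitted on it. With the replicate block, 9 other retinoid genes rose and 13 fell, and 2 members were higher (Rarb and Rara) and 3 lower. The 2 higher members were not the same as reported, since Aldh1a2 lost its call there (0.22) and Rara gained one (0.27). Aldh1a1 turned to -0.87 in the block and with MesPC 1-3 alone. Stra6, MesPC 1-3 minus MesPC 4-6, turned to -0.54 with the mean of its probe sets, which gave 0.71 for MesPC minus MesE11. Genes inside the bacterial control range had little signal to measure.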

Other observations

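Nuclear receptors that pair with or compete with RXR were measured for all 11 listed genes, of which 1 rose and 3 fell at the brightest probe set. Over all probe sets 19.7% rose and 22.5% fell, and nothing is read from these counts about the receptors as a group. Nr4a2, a receptor needed for midbrain dopaminergic neurons, fell by 1.53 on the log2 scale (SE 0.25, adjusted p = 9.40e-04), with a mean of 7.72 in MesPC and 9.24 in MesE11, and its dimmer probe set fell by 1.02. Nr4a2 was lower in MesPC 1-3 than in MesPC 4-6, with a difference of -0.86 (SE 0.07, adjusted p = 1.47e-06). The orphan receptors Nr2f2 and Nr2f1 fell by 0.60 (SE 0.11, adjusted p = 0.00253) and 0.54 (SE 0.06, adjusted p = 8.86e-05) on the same scale. Nr1h2, a liver X receptor, rose by 0.36 (SE 0.07, adjusted p = 0.00278), while the mean of its probe sets gave 0.11 (adjusted p = 0.113). Of 12 measured receptor cofactors, Hdac3, a histone deacetylase of corepressor complexes, was the only one past the threshold at the brightest probe set. It rose by 0.38 (SE 0.06, adjusted p = 5.97e-04). Dimmer probe sets of Crebbp and Pnrc1 fell by 0.26 and 0.28 (SE 0.09 each, adjusted p = 0.0315 and 0.0305), that of Pnrc1 within the bacterial control range.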
